A study of Mus musculus with 2 samples.

Results

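The mast cell and basophil proteases and receptor genes described here are 8 genes taken by symbol from the gene list of the files: the proteases Mcpt8, Prss34, Cpa3, Mcpt4, Cma1 and Tpsb2 and the IgE receptor subunits Fcer1a and Ms4a2. They are 8 of 32285 genes, and the cells that carry them were found as the barcodes with at least 5 unique molecular identifiers (UMIs, 1 per captured transcript) of any 1 of them. This held for 32 of 13555 barcodes in both libraries. The data are droplet single-cell RNA sequencing (scRNA-seq) of the temporomandibular joint (TMJ), the jaw joint, of C57BL/6 mice of 8 to 10 weeks, with 1 library for each of the 2 genotypes, WT and Prox1 mutant. According to the study the mice were female and the mutant was Prox1+/-, heterozygous in every cell for a transcription factor needed for lymphatic vessels. Both groups had complete Freund's adjuvant (CFA), an inflammatory agent, injected into the joint, so no untreated joint is among them, and how many mice each library holds is not given in the sources used here. The comparison asks which cells of the inflamed joint differ when lymphatic vessels are deficient. With 1 library per genotype there is no replicate error and no test, and all intervals below are 95% intervals of counting error only. The labelled tissue showed in barcodes led by mesenchymal genes (719 in WT, 674 in the mutant) and chondrocyte genes (33 and 13). Others were led by erythroid genes (615 and 1373), granulocyte-monocyte progenitor genes (142 and 151) and B lineage genes (160 and 122). Whether the barcodes described here came from bone marrow, blood or joint tissue was not tested.

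Mast cells live in connective tissue, including joint synovium, and store chymases (Mcpt4, Cma1), tryptases (Tpsb2, Tpsab1) and the carboxypeptidase Cpa3 in granules with histamine and heparin. Basophils are rare granulocytes made in the bone marrow that enter inflamed tissue from the blood, and in mice they carry their own granule proteases, Mcpt8 (the marker protease of mouse basophils) and Prss34 (a tryptase of basophils). Both cell types bind IgE through the high-affinity receptor, whose α chain is Fcer1a and whose β chain is Ms4a2, and both release histamine and cytokines such as IL-4 when the receptor is crosslinked. Basophil progenitors arise near the granulocyte-monocyte progenitors and share some of their granule genes, such as Mpo.

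The label names 2 cell types, and only 1 of them, the basophil, was found by its own proteases. A mast cell with few UMIs of its proteases would have been missed. No barcode had more than 1 UMI of any of the mast cell proteases Mcpt4, Cma1 and Tpsb2. Mcpt4 had 1 UMI in the whole WT library and 0 in the mutant, Cma1 had 2 and 1, and Tpsb2 had 0 in both. A barcode was put on the mast side when Mcpt4, Cma1 and Tpsb2 together had at least 3 UMIs and more than Mcpt8 and Prss34 together, and on the basophil side in the reverse case. The mast side held 0 of 5709 WT barcodes, which allows a share of up to 0.0525%, and 0 of 7846 mutant barcodes, which allows up to 0.0382%. The basophil side held 13 barcodes in WT and 16 in the mutant, and 2 WT barcodes and 1 mutant barcode fell on neither side. The genes are therefore described below as basophil genes with a set of mast cell genes at or near 0.

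The start regions of the genes that carried the finding are shown first, since Gata2, a zinc finger factor of the mast cell and basophil lineages that binds GATA sites, was among the genes leading these barcodes. Each is 250 bases before to 50 bases after the RefSeq transcript start, from the RefSeq table of build GRCm38.p6, printed 5′ to 3′ on the strand of the gene. Capitals mark GATAA on either strand (written TTATC where it lies on the other strand). Mcpt8 and Prss34 are shown as the highest basophil proteases, Cpa3 and Ms4a2 as genes of both cell types, and Mcpt4 as a mast cell gene that was not expressed here.
Mcpt8, chr14:56085148-56085447, minus strand: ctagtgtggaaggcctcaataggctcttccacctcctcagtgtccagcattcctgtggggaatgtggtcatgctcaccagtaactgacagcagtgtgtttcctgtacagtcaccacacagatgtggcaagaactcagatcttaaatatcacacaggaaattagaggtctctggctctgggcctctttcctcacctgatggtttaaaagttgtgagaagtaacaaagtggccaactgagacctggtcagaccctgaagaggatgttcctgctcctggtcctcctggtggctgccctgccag
Prss34, chr17:25298144-25298443, plus strand: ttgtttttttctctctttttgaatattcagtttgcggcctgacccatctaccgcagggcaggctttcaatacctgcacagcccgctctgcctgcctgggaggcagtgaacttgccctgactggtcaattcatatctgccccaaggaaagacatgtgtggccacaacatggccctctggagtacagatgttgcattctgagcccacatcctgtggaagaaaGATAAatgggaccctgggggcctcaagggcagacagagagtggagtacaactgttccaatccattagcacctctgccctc
Cpa3, chr3:20242132-20242431, minus strand: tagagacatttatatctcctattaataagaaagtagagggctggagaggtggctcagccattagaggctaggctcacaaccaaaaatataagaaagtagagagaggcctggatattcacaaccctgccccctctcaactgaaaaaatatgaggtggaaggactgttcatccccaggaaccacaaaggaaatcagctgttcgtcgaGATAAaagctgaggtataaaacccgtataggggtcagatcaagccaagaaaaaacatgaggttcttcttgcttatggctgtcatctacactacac
Ms4a2, chr19:11623670-11623969, minus strand: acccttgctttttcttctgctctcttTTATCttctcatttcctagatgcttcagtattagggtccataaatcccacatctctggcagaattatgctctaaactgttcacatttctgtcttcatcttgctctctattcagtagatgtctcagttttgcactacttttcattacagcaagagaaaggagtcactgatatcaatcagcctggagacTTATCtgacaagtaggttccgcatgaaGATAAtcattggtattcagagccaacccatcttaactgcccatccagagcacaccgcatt
Mcpt4, chr14:56062261-56062560, minus strand: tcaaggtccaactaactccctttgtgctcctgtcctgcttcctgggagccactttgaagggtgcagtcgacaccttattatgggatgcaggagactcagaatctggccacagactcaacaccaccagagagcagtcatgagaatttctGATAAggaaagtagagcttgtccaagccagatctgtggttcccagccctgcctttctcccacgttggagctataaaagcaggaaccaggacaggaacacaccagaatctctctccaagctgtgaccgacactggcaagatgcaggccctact

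The table held a start region for 7 of the 8 genes, and Tpsb2 had no entry. GATAA was found in 6 of these 7, against 25.4% of all 32851 start regions of the same length. The match nearest the start lay at position -30 in Prss34, -45 in Cpa3 and -10 in Ms4a2, which held 3 matches, as against 5.27% of all start regions with 2 or more. Fcer1a, Mcpt4 and Cma1 held 1 match each, and Mcpt8 held none. The letters were thus in the windows of Mcpt4 and Cma1, which had almost no UMIs, and not in the window of Mcpt8, which had 1147 and 2055 UMIs. A match is a description of these windows and not a binding site.

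In the whole libraries, Prss34 and Fcer1a were the genes that differed most, and both were lower in the mutant. Levels are given as counts per 1000000 UMIs of the library (CPM). Prss34 stood at 72.1 CPM in WT (3858 UMIs, 69.8 to 74.4) and 25.4 in the mutant (1588 UMIs, 24.2 to 26.7), and the log2 ratio of mutant over WT was -1.50 (-1.59 to -1.42). Fcer1a stood at 3.66 CPM (196 UMIs) and 1.36 CPM (85 UMIs), with a log2 ratio of -1.43 (-1.81 to -1.05). Cpa3 went from 8.41 CPM (450 UMIs) to 5.14 CPM (321 UMIs), and Ms4a2 from 2.54 CPM (136 UMIs) to 1.87 CPM (117 UMIs), log2 ratios of -0.71 (-0.92 to -0.50) and -0.44 (-0.81 to -0.07). Mcpt8 had the opposite direction, going from 21.4 CPM for WT to 32.9 for the mutant library, with a log2 ratio of 0.62 (0.51 to 0.72). A difference of at least 2 times was seen for 2 of the 5 genes with at least 50 UMIs over both libraries, against 10.3% of all 16763 such genes, and both were lower in the mutant, against 6.17% of all. The median log2 ratio of all these genes was -0.14. These library levels rest on very few cells: 50.3% of the Mcpt8 UMIs of the mutant's basophil side came from 1 barcode, and without the barcode richest in Mcpt8 in each library the log2 ratio of Mcpt8 was 0.31. In the mutant, 2 barcodes held 905 and 630 of the 2055 Mcpt8 UMIs, and in WT the 2 richest held 350 and 219 of 1147. With these barcodes left out, fewer Mcpt8 UMIs remained in the mutant than in WT, although the mutant library held more UMIs. The higher library level of Mcpt8 in the mutant thus rests on its 2 richest barcodes. The log2 ratio without them was not computed.

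The number of barcodes past the rule was close in both libraries. WT had 15 of 5709 (0.263%, Clopper-Pearson interval 0.147% to 0.433%) and the mutant 17 of 7846 (0.217%, 0.126% to 0.347%). The difference, mutant minus WT, was -0.0461 percentage points (Newcombe interval -0.235 to 0.120), so a higher or lower share was not detectable at this number of cells. Of these barcodes, 13 in each library passed the study's filter of at least 500 genes and under 10% mitochondrial UMIs. The basophil-side barcodes had a median of 9420 UMIs in WT (1187 to 28655) and 5440 in the mutant (992 to 31034), against 5834 and 4367 over all barcodes. After every barcode was thinned to 2000 UMIs, 9 of 4519 WT barcodes (0.199%) and 10 of 5635 mutant barcodes (0.177%) met the rule, with 1190 and 2211 shallower barcodes left out.

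The threshold cut through a thin tail. The highest count of any of the 8 genes was 1 in 117 WT and 472 mutant barcodes, 2 in 3 and 22, 3 in 2 and 4, and 4 in 1 and 3 barcodes. Just inside it, 4 WT and 6 mutant barcodes had a highest count of 5 to 9. The upper end was wide, since 8 WT and 4 mutant barcodes had 50 or more UMIs of 1 gene. No barcode of the set shared its sequence with the other library, although 10 barcode sequences occurred in both.

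**Figure D1:**
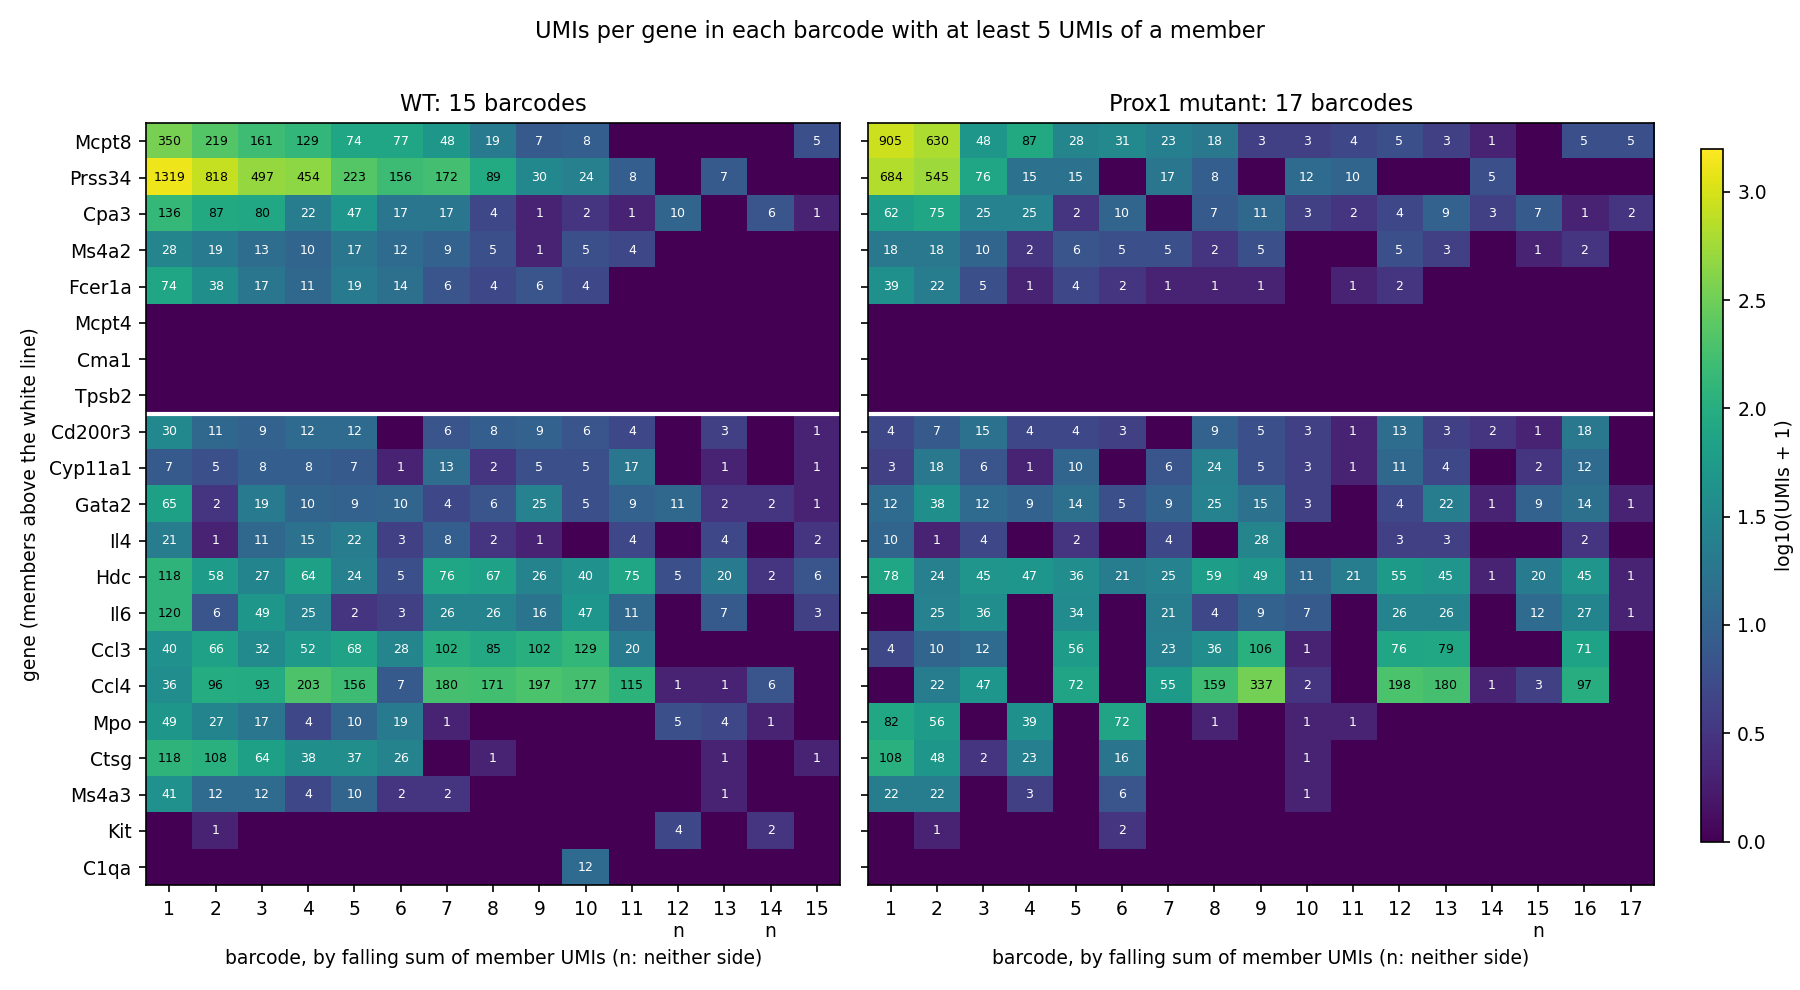
UMIs of the 8 genes (above the white line) and of 13 other genes (below it) in each barcode with at least 5 UMIs of a member, 15 in WT (left) and 17 in the Prox1 mutant (right), with colour as log10(UMIs + 1) and the count written in each cell that is not 0. Barcodes run by falling sum of member UMIs. The rows of Mcpt4, Cma1 and Tpsb2 are empty in all 32 barcodes, and the Prss34 row is brighter than the Mcpt8 row in WT.

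Of the 8 genes, Mcpt8 was found in the most mutant basophil-side barcodes. The side was defined by Mcpt8 and Prss34, so in the 6 mutant barcodes with no Prss34 a UMI of Mcpt8 was fixed in advance. Mcpt8 lies at chr14:56082166-56085273 in the cluster of chymases, cathepsin G and granzymes. In the 13 WT basophil-side barcodes it had 0 to 350 UMIs with a median of 48, and 11 of them had a UMI. In the 16 mutant barcodes it had 1 to 905 with a median of 11.5, and 16 had a UMI. The 2 libraries overlapped over most of this range, with the 2 highest values (630 and 905) both in the mutant. Summed over the side, Mcpt8 stood at 7413 CPM in WT and 13929 in the mutant, and at 6260 and 9111 CPM without the richest barcode of each. The higher sum of the mutant thus went with a lower median count per barcode. Counts per barcode here and below are not scaled by depth, and these barcodes had a median of 9420 UMIs in WT and 5440 in the mutant.

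Prss34, the basophil tryptase at chr17:25298394-25300165, was lower in the mutant both in the sum over the side and in the median count per barcode. WT barcodes had 0 to 1319 UMIs with a median of 156, and mutant barcodes had 0 to 684 with a median of 9. A UMI was found in 12 of 13 WT and 10 of 16 mutant barcodes. The side stood at 25659 CPM in WT (24849 to 26488) and 10739 in the mutant (10181 to 11319), and at 20766 and 7165 CPM without the richest barcode of each. The 4 highest values in WT were 1319, 818, 497 and 454, and in the mutant only the 2 deepest barcodes (684 and 545) reached that range.

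The balance of the 2 basophil proteases within cells also differed between the libraries. The basophil side held 3.46 Prss34 UMIs per Mcpt8 UMI in WT (3.235 to 3.705) and 0.771 in the mutant (0.718 to 0.827). The ratio is read between libraries and not as which transcript was more abundant, since capture can differ between transcripts. More Prss34 than Mcpt8 UMIs were found in 12 of 13 WT and 4 of 16 mutant barcodes. In barcodes with at least 20 UMIs of both together, Prss34 made up 67.0% to 82.4% in 10 WT barcodes (median 78.0%). In 8 such mutant barcodes it made up 0% to 61.3% (median 38.7%), and these ranges did not overlap. This cut was not planned, and over all basophil-side barcodes the libraries did overlap. Below the cut, 1 WT barcode had no Prss34, and 1 mutant barcode had 12 Prss34 and 3 Mcpt8 UMIs. How many other gene pairs separate the libraries in this way was not tested. Without the barcode richest in Prss34 the ratios were 3.32 and 0.786. Among barcodes past the study's filter they were 3.47 and 0.761. The 4 mutant barcodes outside the filter had 27 Prss34 and 13 Mcpt8 UMIs, a ratio of 2.08 (1.035 to 4.38), and held 3 of the 4 mutant barcodes with more Prss34. Cells of 1 library are not replicates, so whether this difference goes with genotype, with the mice or with the library cannot be told apart.

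**Figure D2:**
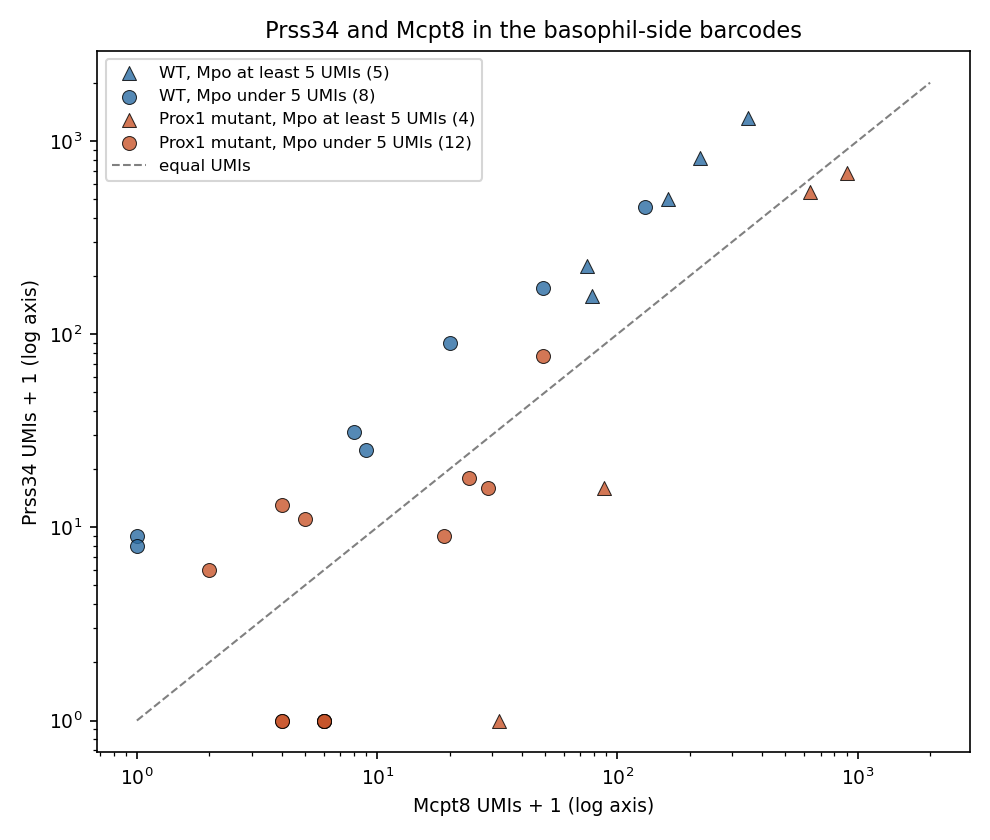
Prss34 UMIs + 1 against Mcpt8 UMIs + 1 (log axes) in each basophil-side barcode, 13 WT (blue) and 16 Prox1 mutant (orange), with triangles for at least 5 Mpo UMIs, circles for fewer and a dashed line where both counts are equal. The WT barcodes lie above the line except 1 with 5 Mcpt8 UMIs and no Prss34, which is drawn at the same place as 3 mutant barcodes and covered by them, and the mutant barcodes with more than 20 Mcpt8 UMIs lie below it except 1 (48 Mcpt8 and 76 Prss34 UMIs).

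Cpa3, a metalloprotease of mast cell granules that basophils and some blood progenitors also express, was found in nearly all of these cells. Its counts also entered the rule. Cpa3 had 0 to 136 UMIs in WT (median 17, a UMI in 12 of 13 barcodes) and 0 to 75 in the mutant (median 5.5, 15 of 16). The side stood at 2804 CPM (2541 to 3088) and 1866 CPM (1638 to 2117), and at 2338 and 1564 CPM without the richest barcode of each. The ranges of both libraries overlapped from 0 to 75 UMIs, and the 3 highest values were 136, 87 and 80 in WT.

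The IgE receptor chains had fewer UMIs than the proteases. Fcer1a, the IgE-binding α chain, had 0 to 74 UMIs in WT (median 6, a UMI in 10 of 13 barcodes) and 0 to 39 in the mutant (median 1, 11 of 16). Ms4a2, the signal-amplifying β chain, had 0 to 28 (median 9, 11 of 13) and 0 to 18 (median 4, 12 of 16). Fcer1a stood at 1304 CPM in WT (1127 to 1502) and 612 in the mutant (484 to 762), and at 997 and 408 CPM without the richest barcode of each. Ms4a2 stood at 831 CPM (691 to 992) and 627 CPM (498 to 780), intervals that overlapped. Fcer1g, the γ chain that the IgE receptor shares with other Fc receptors, had 2237 CPM in WT and 767 in the mutant, against 1027 and 748 CPM in all other barcodes.

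Mcpt4 (chr14:56059629-56062313), Cma1 (chr14:55941451-55944675) and Tpsb2 (chr17:25366305-25369098), the chymases and tryptase of connective tissue mast cells, had 0 UMIs in all 29 basophil-side barcodes. With 147982 and 129155 UMIs in the side, a count of 0 (set to 3 UMIs) allows up to 20.3 CPM in WT and 23.2 in the mutant. The chymase and granzyme cluster from Cma1 to Gzmb (chr14:55941451-56262260) holds 15 genes, and 10 of them had no UMI on the basophil side. Beside Mcpt8, Ctsg (cathepsin G, also a neutrophil granule protease) had 394 and 198 UMIs, Gzmb 31 and 17, and Gzmc 29 and 14, the last 2 being granzymes, and Cma2 had 1 UMI in the mutant. In the tryptase cluster from Prss34 to Tpsg1 (chr17:25298394-25374442), 4 of 6 genes had no UMI there. Prss28, the neighbour of Prss34, had 5 and 4 UMIs, which cannot be told from shared reads between related tryptases.

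Several mast cell genes outside the 8 were also at 0. Tpsab1, the other mast cell tryptase, Mrgprb1 and Mrgprb2, receptors for peptide agonists of mast cells, and Tph1, the enzyme of serotonin synthesis, had 0 UMIs in every barcode of both libraries, as had Mcpt1 and Mcpt9. Kit, the stem cell factor receptor on which mast cells depend, had 741 and 913 UMIs in the libraries, but 1 and 3 of them on the basophil side. There were 38 WT and 44 mutant barcodes with at least 5 Kit UMIs, none of them in the set, and they held 3 UMIs of the 8 genes in each library (2.25 and 2.19 CPM). Those barcodes carried 388 and 287 UMIs of Cd34, a marker of stem and endothelial cells. They also carried genes of the mast cell list, with 28 and 128 UMIs of Hdc, 17 and 12 of Slc18a2 and 51 and 61 of Mitf. Gata2 had 35 and 46 UMIs in them. Whether any of these barcodes holds a mast cell with few protease UMIs was not tested. Of the 12 mast cell markers, 3 stood at least 10 times higher on the basophil side than in other barcodes (Slc18a2, Hdc and Il1rl1, which basophils also express) and 5 had no UMI there. The median ratio over the list was 1, the value of a gene with no UMI anywhere. Background for such calls was 66 of 1353 genes tested (4.88%), and the 5 members that could be tested were all among the 66, as the choice of the barcodes by these genes had fixed.

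**Figure D3:**
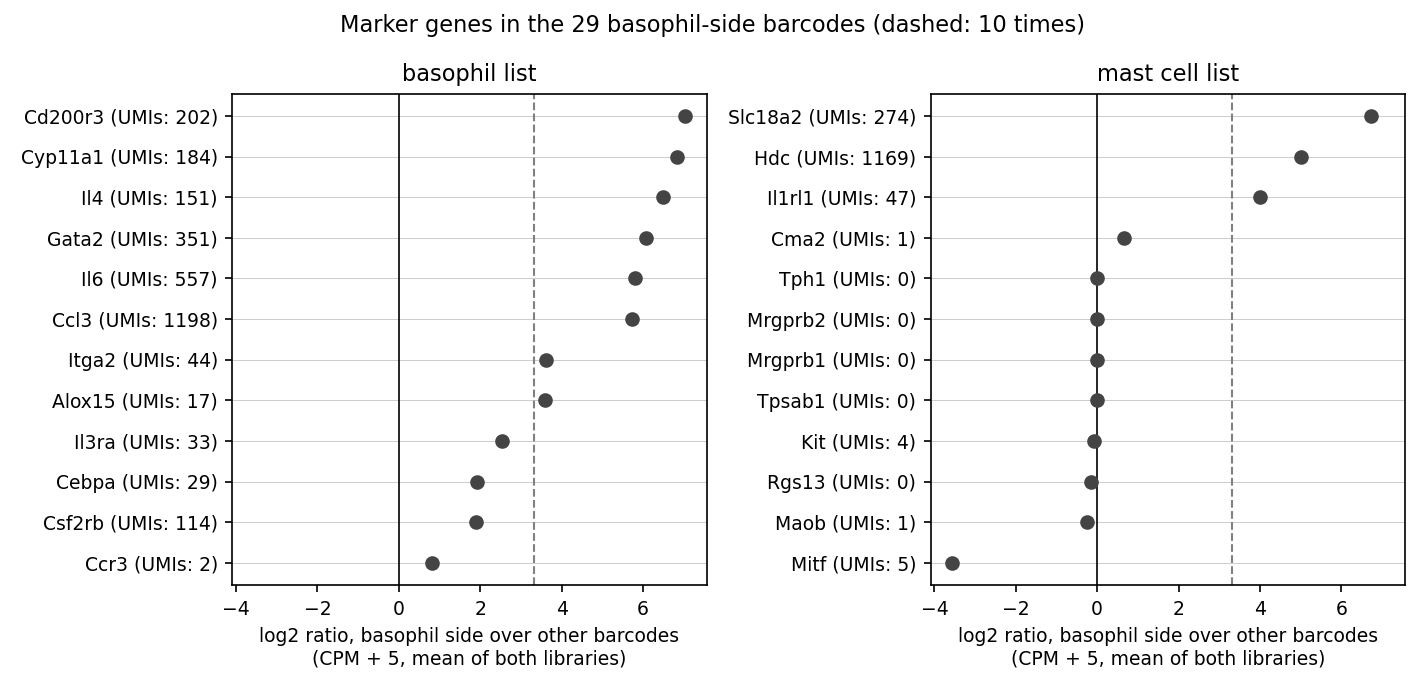
Log2 ratio of CPM + 5 in the 29 basophil-side barcodes over all other barcodes, mean of both libraries, for 12 basophil markers (left) and 12 mast cell markers (right), none of them a member, with the UMIs on the basophil side beside each name and a dashed line at 10 times. On the left 8 of 12 lie past the line, and on the right 3 of 12, and 5 of the others have no UMI on the basophil side.

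Of the 12 basophil markers, none of which chose the barcodes, 8 stood at least 10 times higher on the basophil side, with a median ratio of 25.5. The list was chosen with earlier results of these data known, so it is a description and not independent support. Over all genes tested the share was 4.88% (66 of 1353), under a filter on UMIs and barcodes that Itga2 and Alox15 did not meet. Cd200r3, an activating receptor of basophils, led all genes outside the 8 with 750 CPM in WT (617 to 903) and 705 in the mutant (567 to 865), against 0.244 and 0.995 CPM in other barcodes. It had a UMI in 12 of 13 and 14 of 16 barcodes. Cyp11a1, a steroid-synthesis enzyme, had 541 and 805 CPM, and Gata2 1129 and 1425 CPM. The list genes Itga2 (an adhesion receptor) and Alox15 (a lipoxygenase) also passed 10 times, while Il3ra, Csf2rb and Cebpa stood at 5.77, 3.74 and 3.81 times. Ccr3, the eotaxin receptor, had 2 UMIs in all. Of the 8 eosinophil markers, 5 had no UMI on the basophil side, among them Prg2, the eosinophil major basic protein. Ear2, on the same list, had 19 UMIs there, all in 1 mutant barcode.

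The genes outside the 8 with the highest ratios included Cd200r3, Hgf, Cyp11a1, Slc18a2, Il4, Gata2, Il6, Ccl3 and Ccl4, with ratios from 131 down to 49.8. Hgf, hepatocyte growth factor, had 2189 CPM in WT and 3500 in the mutant, against 17.3 and 21.2 CPM in other barcodes, and the basophil side held 25.9% and 25.5% of all its UMIs in the libraries.

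Of the 17 cytokine and chemokine genes, 7 passed 10 times, with a median ratio over the list of 1.06. Il4, the type 2 cytokine of basophils, had 635 CPM in WT (513 to 777) and 441 in the mutant (334 to 572), with a UMI in 12 of 13 and 9 of 16 barcodes. The basophil side held 73.4% of all Il4 UMIs of the WT library and 42.2% of those of the mutant. Il6, an inflammatory cytokine, stood at 2304 and 1672 CPM. The neutrophil- and monocyte-attracting chemokines Ccl3 and Ccl4 reached 4892 and 3670 CPM and 9677 and 9059 CPM. Csf1, a macrophage growth factor, Osm, an IL-6 family cytokine, and Il13, which shares receptors with IL-4, were also past 10 times, with Csf1 at 426 and 1285 CPM. Il5, Il3, Csf2 and Areg had 0 UMIs, and Tnf had 14 and 1 UMIs.

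Hdc was found in all of these cells. It makes histamine and had a UMI in 13 of 13 and 16 of 16 barcodes, with 4095 and 4359 CPM, and Slc18a2, which loads it into granules, stood at 1189 and 759 CPM. Srgn, the proteoglycan core of granules, stood at 5399 and 4824 CPM, 6.14 times the other barcodes. Hdc was not restricted to these cells, since the basophil side held 10.8% and 5.16% of its UMIs.

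Receptors and lipid enzymes gave a similar picture of a few high genes. Of 18 receptor genes, 4 passed 10 times: Cd200r3, the IL-33 receptor Il1rl1 (149 and 194 CPM), the IL-18 receptor chain Il18r1 (149 and 232 CPM) and Itga2. Of 9 lipid mediator enzymes, 2 passed, Alox5 (237 and 201 CPM), the first enzyme of leukotriene synthesis, and Alox15, while Ltc4s, which makes leukotriene C4, had 0 UMIs. Of 15 genes of IgE receptor signalling none passed 10 times, 12 had at least 10 UMIs, and the median ratio was 1.01. Of 14 transcription factors, 2 passed, Gata2 and Ikzf2, while Mitf, a factor of mast cells and macrophages, had 2 and 3 UMIs.

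The basophil-side barcodes differed among themselves in some granule genes of early myeloid cells. Of the 8 genes of the granulocyte-monocyte progenitor list, 4 stood at least 10 times higher on the basophil side than in other barcodes, with a median ratio of 8.75. Elane and Prtn3, also on this list, stood at 0.360 and 0.943 times. At least 5 UMIs of Mpo, myeloperoxidase, were found in 5 WT barcodes (10 to 49) and 4 mutant barcodes (39 to 82), and the other 8 and 12 had at most 4 and 1. This cut was chosen after the values were seen and serves as a description. The Mpo barcodes were deeper, with medians of 16861 and 19116 UMIs against 6449 and 4614. They held more Ctsg (4066 against 670 CPM in WT, 2623 against 54.7 in the mutant), Ms4a3, a gene of granulocyte-monocyte progenitors (887 against 114 CPM, 713 against 18.2), and Calr, an endoplasmic reticulum chaperone (2972 against 360 CPM, 2569 against 109). The proliferation genes Top2a (415 against 16.35 CPM, 861 against 91.2), Stmn1 (553 against 180, 767 against 36.5) and Mki67 (265 against 65.4, 202 against 164) were also higher. The intervals of Mki67 overlapped in the mutant, where Top2a and Mki67 had a UMI in 2 of the 4 Mpo barcodes.

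Summed over barcodes, 3 of the proteases were also higher in the Mpo groups. In WT, Mpo barcodes had 34704 CPM of Prss34 against 12818, 10147 against 3532 of Mcpt8 and 4227 against 785 of Cpa3. In the mutant the values were 16733 against 2609 for Prss34, 22234 against 2664 for Mcpt8 and 2314 against 1259 for Cpa3. In the mutant these sums rested on 2 of the 4 Mpo barcodes, which held 684 and 545 of the 1244 Prss34 UMIs and 905 and 630 of the 1653 Mcpt8 UMIs. Single barcodes did not all follow the groups: 1 mutant Mpo barcode with 72 Mpo UMIs had 48 UMIs of the 8 genes and no Prss34, below a mutant barcode with no Mpo and 164. In WT, a barcode with 4 Mpo UMIs had 626 UMIs of the 8 genes, above Mpo barcodes with 380 and 276. Ms4a2 was higher in the Mpo barcodes of WT (1025 against 556 CPM) and not in those of the mutant (578 against 693 CPM). Hdc ran the other way, with 2672 against 6115 CPM in WT and 2287 against 7170 in the mutant, as did Ccl4, with 4469 against 17069 and 296 against 20945 CPM. In the mutant, Il6 and Ccl4 had a UMI in 1 of the 4 Mpo barcodes each, and in WT in 5 of 5. The Prss34 to Mcpt8 ratio was 3.42 (3.17 to 3.69) and 3.63 (3.12 to 4.24) in WT with and without Mpo, and 0.753 (0.699 to 0.811) and 0.979 (0.772 to 1.24) in the mutant. The lower ratio of the mutant library was thus seen in both groups of this cut. The cut took Mpo UMIs without regard to depth, so the groups need not be 2 kinds of cell. For example, a WT barcode with 4 Mpo UMIs among 2539 fell under it, and 1 with 10 among 18437 fell over it.

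Elane, neutrophil elastase, had 0 UMIs on the WT basophil side and 50 in the 4 mutant Mpo barcodes, of which 19 and 20 lay in 2 of them. Genes of several mature cell types were low: the neutrophil list had a median ratio of 0.0306, the macrophage list 0.151 and the mesenchymal list 0.0340. The T and NK list was not, with a median ratio of 2.69 and 2 of its 6 genes past 10 times, while Cd3e and Cd3g on it had 0 UMIs. By highest mean level, without the basophil and mast cell lists, the granulocyte-monocyte progenitor list led 9 WT and 7 mutant basophil-side barcodes. The neutrophil list led 4 mutant barcodes and the macrophage list 1 WT barcode, and no list led 3 WT and 5 mutant ones. In 1 WT barcode with 20639 UMIs, all 8 macrophage genes had a UMI, C1qa among them with 12, and no other basophil-side barcode had more than 3 of them. That barcode carried 43 UMIs of the 8 genes, and whether it holds more than 1 cell was not tested.

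The 3 barcodes on neither side had Cpa3 without basophil proteases. The WT ones held 10 and 6 Cpa3 UMIs with 11 and 2 of Gata2 and 4 and 2 of Kit, and 1 of them had 39 UMIs of the proliferation gene Mki67. The mutant one held 7 Cpa3 and 1 Ms4a2 UMI with 20 of Hdc, 9 of Gata2, 25 of Hgf and 12 of Il6. None had a UMI of Mcpt8, Prss34, Mcpt4, Cma1 or Tpsb2.

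Outside the set the 8 genes were a thin background that was higher in the mutant library. The set held 97.4% of their UMIs in WT and 86.3% in the mutant. The other barcodes held 149 UMIs in WT (2.79 CPM, 2.36 to 3.28) and 572 in the mutant (9.18 CPM, 8.44 to 9.97), a ratio of 3.28 (2.74 to 3.96). A UMI was found in 2.16% of 5694 WT barcodes (1.80% to 2.57%) and 6.40% of 7829 mutant barcodes (5.87% to 6.96%), and in 0.710% and 2.67% after thinning to 2000 UMIs. Most of it was Prss34 (61 and 201 UMIs) and Mcpt8 (50 and 256), followed by Cpa3 (19 and 73), Ms4a2 (13 and 35) and Fcer1a (3 and 6). The Prss34 to Mcpt8 ratio outside the set was 0.785 in the mutant (0.6495 to 0.948), near that of its basophil side, and 1.22 in WT (0.826 to 1.81), below that of its own.

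**Figure D4:**
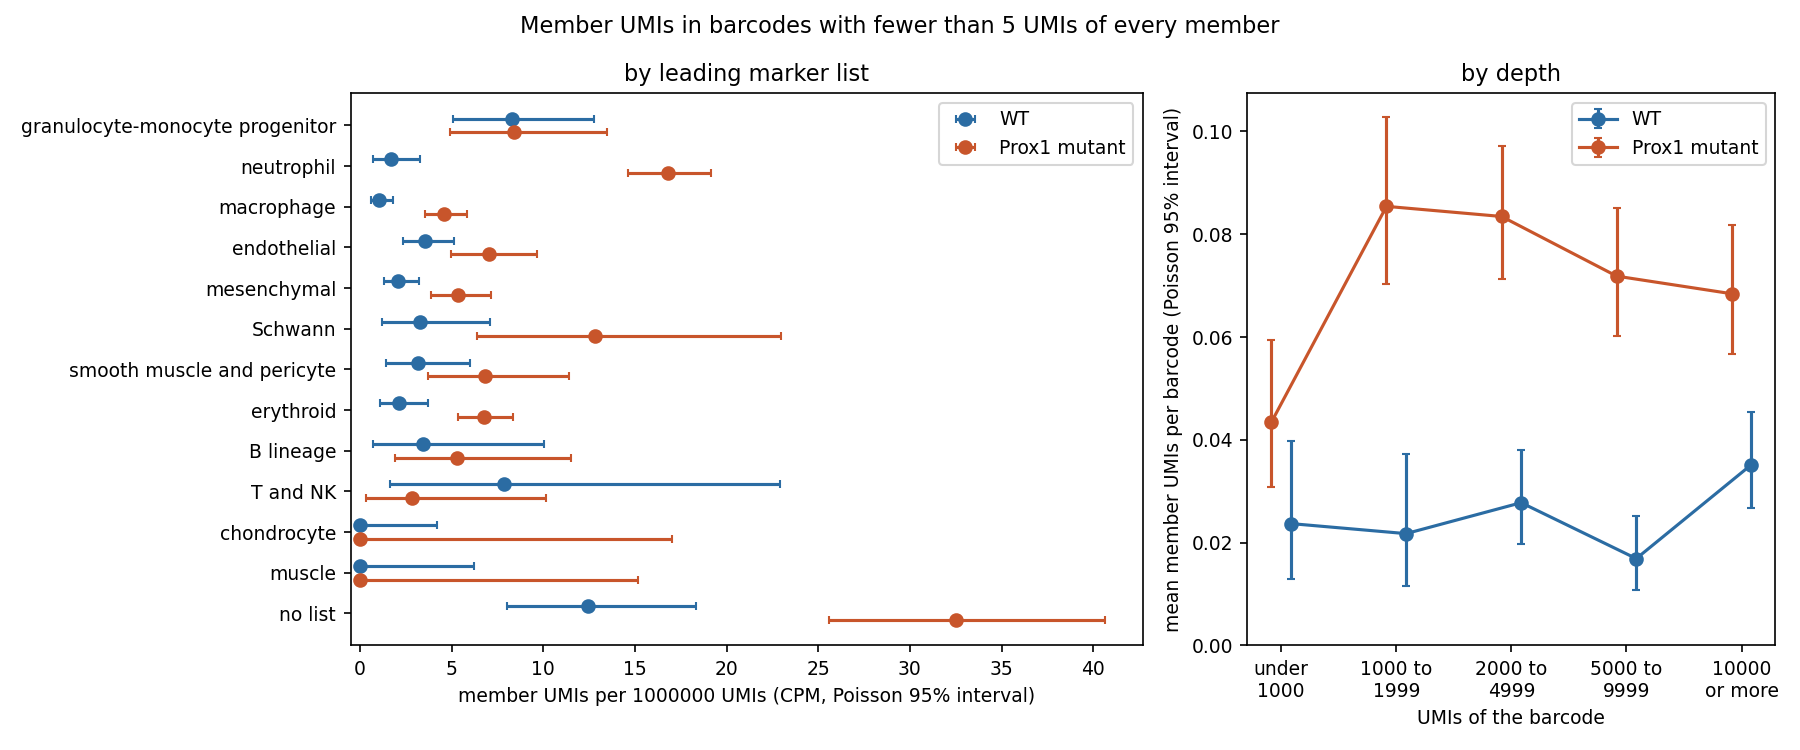
Left: UMIs of the 8 genes per 1000000 UMIs in barcodes outside the set, by leading marker list, for WT (blue) and the Prox1 mutant (orange), with Poisson 95% intervals. Right: the mean number of their UMIs per barcode by the depth of the barcode. The mutant lies above WT in most lists and in each depth bin, and neutrophil-led barcodes stand at 16.8 CPM in the mutant and 1.68 in WT.

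The background was spread over unrelated cells. Barcodes were sorted by the marker list with the highest mean level, without the basophil and mast cell lists. Endothelial barcodes had a UMI in 2.16% in WT and 4.87% in the mutant, mesenchymal ones in 2.64% and 6.23%, and erythroid ones in 1.95% and 5.90%, at median depths of 4057 and 5022, 11639 and 7189, and 8136 and 7619 UMIs. These are cell types that should lack the 8 genes, so shares at this level are read as background and not as expression. By CPM, the neutrophil list stood highest of the named lists in the mutant (16.8, against 1.68 in WT), where it led 2438 barcodes against 536 in WT. These barcodes had a UMI in 7.75% (6.72% to 8.89%) at a median depth of 2276, and in 1.49% (0.647% to 2.92%) at 3856 in WT. With barcodes under 2000 UMIs left out they had 13.6 CPM (11.5 to 15.9) in the mutant and 1.30 (0.478 to 2.84) in WT. Barcodes in which no list had 3 genes had 32.5 CPM in the mutant and 12.4 in WT, at median depths of 1449 and 1199. Barcodes led by the granulocyte-monocyte progenitor list had 8.43 and 8.28 CPM in mutant and WT and a UMI in 7.95% and 7.75% of barcodes, with 8 and 9 UMIs of Mcpt8. In the mutant, the second-best list came within 10% of the first in 414 of 7829 barcodes, and in WT in 74 of 5694.

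The mean number of these UMIs per barcode stayed between 0.0169 and 0.0352 in WT and between 0.0434 and 0.0854 in the mutant over all depths, while the CPM fell. In WT it was 0.0237 under 1000 UMIs, 0.0278 from 2000 to 5000 and 0.0352 at 10000 or more, and the CPM went from 33.4 to 8.20 and 1.60. In the mutant the means were 0.0434, 0.0835 and 0.0684 and the CPM values 59.9, 25.5 and 3.03. The higher background of the mutant was therefore present in shallow and deep barcodes. RNA free in the cell suspension was not measured, and its part in the background was not tested.

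Some barcodes under the threshold carried other basophil genes. Of barcodes outside the set with at least 2 UMIs of Cd200r3, there were 1 in WT and 10 in the mutant, and 1 and 7 of them also had at least 4 UMIs of Hdc. The WT one had 3 UMIs of Cpa3, 40 of Hdc and 144 of Ccl4. In the mutant, 1 had 55 UMIs of Hdc and 23 of Il4 with none of the 8 genes, and also 111 of the neutrophil gene S100a8, and another had 23 of Hdc, 24 of Il4 and 46 of Hgf with none. The rule thus left out barcodes with other basophil genes and few protease UMIs, and more of them in the mutant library.

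Prox1, the targeted gene, stood at 10.7 CPM in WT (574 UMIs, 9.87 to 11.6) and 5.28 in the mutant (330 UMIs, 4.73 to 5.89), a direction that goes with the labels. The mix of cells differed as well, with 1249 of 5694 barcodes outside the set led by endothelial genes in WT and 760 of 7829 in the mutant. The part of this mix in the Prox1 difference was not tested. The labels give no litter, day or batch for either library, so these cannot be told apart from genotype.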

How the data were processed

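Droplet scRNA-seq was made from 1 WT and 1 Prox1 mutant TMJ library, both after CFA. Cell Ranger 7.0.1 was named in the submitters' processing notes, with GRCm38 (mm10) as the build. The files deposited by the authors hold UMI counts per gene and barcode for the barcodes called as cells, without normalization. The labels and the study's methods give different versions of the 10x Genomics chemistry and different digestion enzymes, which can change which cells survive. Whether intronic reads were counted is not given in the sources used here. All deposited barcodes were used (53517206 UMIs in WT, 62446987 in the mutant), and no doublet caller was run.

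Computation used Python 3.11.15, numpy 2.4.6 and scipy 1.17.1. CPM is UMIs per 1000000 UMIs of the barcodes named. Intervals at 95% are Poisson for CPM, Clopper-Pearson for shares, Newcombe for differences and conditional binomial for ratios. A count of 0 was set to 3 UMIs for a limit. Ratios over other barcodes use CPM + 5, averaged as log2 over both libraries, for genes with at least 20 UMIs and a UMI in at least 50% of the 29 barcodes. Marker and pathway genes with under 20 UMIs or a UMI in fewer barcodes were given the same ratio without that filter. Thinning to 2000 UMIs was at random without replacement. Gene positions come from GENCODE M21, of the same build.

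The genes named are the 8 members, the 10 others with the highest ratio, and genes of fixed lists with at least 10 UMIs, those past 10 times first. 1 of those 10 is not reported here. Genes named at or near 0, and single genes of the marker lists such as Mpo, Ms4a3, Calr and Elane, were chosen after their values were seen. The members and lists were chosen with earlier results of these data known. The ratio steps were tested on simulated data. Alternatives changed the rule, the filters, the sides, the denominator, the pseudocount and the barcodes left out.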

Additional observations from a re-analysis of the deposited data

How the results depend on the processing

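The basophil side held 11 to 16 barcodes in every alternative of the sides. The mast side held 0 in each, which was fixed in advance. These alternatives took only barcodes past the rule, and none of those had a UMI of Mcpt4, Cma1 or Tpsb2. The share past the rule, mutant minus WT, stayed negative in all 6 alternatives with an interval that included 0. All 6 still chose barcodes by UMIs of the 8 genes. The rule left out 1 WT and 7 mutant barcodes with at least 2 Cd200r3 and 4 Hdc UMIs, so the sign is not read as stable. Barcodes past the rule fell to 9 in WT and 10 in the mutant after thinning to 2000 UMIs, and to 11 in the mutant with a minimum of 10 UMIs. As mean UMIs per barcode in place of CPM, the log2 ratios of Cpa3, Mcpt8 and Prss34 were -0.95, 0.38 and -1.74. Without the barcode richest in the gene in each library, they were 0.31 for Mcpt8 and -1.71 for Prss34. No log2 ratio changed its direction in these alternatives, but the log2 ratio of Mcpt8 was not computed without the 2 barcodes richest in it. Fewer Mcpt8 UMIs then remained in the mutant than in WT, so the direction of Mcpt8 is not stable. In barcodes with under 2 UMIs of every member, the background was 2.25 CPM in WT and 7.87 in the mutant, and past the study's filter it was 2.305 CPM in WT. With a pseudocount of 20 CPM, 38 genes passed 10 times on the basophil side, and 9 of the 10 leading genes were shared. Chosen after seeing the data, leaving out the 2 barcodes richest in Prss34 gave 3.14 Prss34 UMIs per Mcpt8 UMI in WT and 0.598 in the mutant. No paired analysis was possible because each genotype has 1 library. Leading genes of the mast side could not be given, since it held no barcode. The depth limits the mast cell statement to cells with 3 or more UMIs of the mast cell proteases, and 29 cells in 2 libraries limit every comparison between genotypes.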

Other observations

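The ligands that mast cells and basophils depend on were measured in other cells of the joint. Kitl, the stem cell factor on which mast cells depend, stood at 1105 CPM in endothelial-led barcodes of WT (1082 to 1129) and 1055 in the mutant (1028 to 1082), and at 347 and 306 CPM in those led by smooth muscle and pericyte genes. In mesenchymal-led barcodes Kitl was at 45.9 and 59.2 CPM. Il33, the alarmin ligand of Il1rl1, stood at 108 CPM in mesenchymal-led barcodes of WT and 107 in the mutant, and under 6 CPM in endothelial-led and smooth muscle-led ones. Il3, the main growth factor of basophils, had 0 UMIs in both libraries, and so had Ighe, the IgE heavy chain. Il18 was spread over macrophage-led (21.0 and 33.7 CPM), mesenchymal-led (20.5 and 20.3 CPM) and neutrophil-led barcodes (20.7 and 16.8 CPM). All lists leave some barcodes mixed, and all values are from 1 library each.

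Rgs13, a regulator of IgE receptor signalling on the mast cell list, had 71 UMIs in the mutant library, of which 70 lay in 1 barcode with 19450 UMIs in all. That barcode had 0 UMIs of the 8 genes, of Kit and of Hdc. The 2 Cma1 UMIs of WT lay in 2 barcodes led by T and NK cell genes.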
